A study of Homo sapiens with 6 samples.

Results

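The WNT pathway of YAPC cells was described here from 57 genes of 25442 in the deposited expression table. The 57 were chosen by name, with earlier results of these data known. They are the WNT ligands and Frizzled (FZD) receptors given by WNT or FZD with digits and at most 1 letter, the DKK and SFRP antagonists given by a digit, and 20 listed genes for co-receptors, R-spondin receptors, E3 ligases, scaffolds, feedback inhibitors and transcription factors. The data are RNA-seq of YAPC, a human pancreatic ductal adenocarcinoma (PDA) line that carried the rtTA activator and a doxycycline (Dox)-inducible retroviral vector, pRetroX-Tight-Puro. In YAPC-iGLI2 cells the vector held the GLI2 coding sequence and in YAPC-iEV cells it was empty. Both lines were kept in Dox for 6 days and 3 libraries were made from each, so every difference below is between 2 Dox-treated lines. Whether either line was 1 clone, and whether the 3 libraries of a line came from separate cultures, is not given in the sources used here, so p-values measure only the spread between these libraries, which may be technical. Of the 57 genes, 28 had a mean of at least 1 FPKM (fragments scaled to the length of the transcript and to the fragments of the library) over the 6 libraries, 29 had less, and 6 of those 29 were listed at 0 in every library (WNT2, WNT5A, WNT8A, WNT9B, FZD10 and SFRP1).

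WNT proteins are lipid-modified secreted ligands that bind a Frizzled receptor together with LRP5 or LRP6, which spares beta-catenin from destruction and lets it act with TCF and LEF factors on target genes. Several of those targets, among them AXIN2, NKD1, NOTUM, RNF43 and ZNRF3, restrain the pathway in turn, and their transcripts are widely used as readouts of it. Other WNT ligands act through ROR receptors and the planar polarity machinery without beta-catenin. In PDA, loss of RNF43 is a known route to dependence on the cell's own WNT ligands.

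GLI2, the zinc-finger transcription factor carried by the construct, followed the labels. It was at 0.466, 0.412 and 0.344 FPKM in iEV replicates 1, 2 and 3 and at 94.5, 207 and 195 FPKM in iGLI2 replicates 1, 2 and 3. The deposited values do not separate transcripts of the vector from those of the cell's own gene. GLI2 in iGLI2 replicate 1 was 0.470 of the mean of the other 2 iGLI2 libraries. The total of all values was 981341 to 1082680 FPKM for iEV and 803145 to 889555 FPKM for iGLI2, with a very short gene, MIR4461, holding 42.6 to 45.4% of it in the former and 35.7 to 37.7% in the latter. Depth in reads is unknown, since the values are FPKM. The epithelial markers KRT19 and KRT7 were between 521 and 987 FPKM in every library. Of the 6 epithelial and duct markers tested, EPCAM and CDH1 rose (log2 fold change 0.37 for both, adjusted p = 0.0071 and 0.0169 by limma), MUC1 fell from 24.1, 20.4 and 20.5 FPKM in iEV to 3.54, 3.38 and 3.93 in iGLI2 (log2 fold change -2.29, adjusted p = 1.31e-04 by limma), and KRT19, KRT7 and SOX9 did not pass. The CDH1 call was kept under 2 of the 6 omissions of a library. Among markers of other cells, DCN and CPA1 were listed at 0 in every library. COL1A2, COL3A1, LUM, PDGFRB, PTPRC, CD3E, CDH5 and GCG were under 0.1 FPKM in every library, whereas PDGFRA, PECAM1 and VWF reached 0.142, 0.167 and 0.313 FPKM. Of 17 markers of other cell types found in the table, 4 had a mean of at least 1 FPKM: COL1A1 (1.29 to 1.54 in iEV and 2.28 to 2.98 in iGLI2), CD68, LYZ and PRSS1. LYZ was at 10.3 to 14.2 FPKM in iEV and 5.45 to 14.2 in iGLI2. PRSS1, an acinar marker like CPA1, was at 5.18 to 13.3 FPKM in iEV and 2.59 to 4.36 in iGLI2. CD68, LYZ and PRSS1 did not pass. An entry of 0 need not mean absence: the keratins KRT8 and KRT18 were listed at 0 in all 6 libraries, H3F3A in 1 and HSPD1 in 2.

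Of the 28 WNT pathway genes at or above a mean of 1 FPKM, 12 were higher in iGLI2, 5 were lower and 11 did not pass the test, which was limma on log2(FPKM + 1) with a Benjamini-Hochberg adjusted p under 0.05 over all 12493 genes with that mean. Across those genes 21.9% were called, 10.1% higher and 11.8% lower. The members' share was 60.7%, and their median log2 fold change was 0.31 against -0.01 for all genes tested. The 2 groups of libraries did not overlap in 21 of the 28, beside 42% of all genes tested. WNT7A, WNT11, SFRP5 and FZD3 had a mean under 1 FPKM in iEV and reached the minimum only through the iGLI2 libraries, so their place among the 28 is not independent of the difference, and the share is given as a description. The genes that rose were the ligands WNT7A, WNT11, WNT7B and WNT3, the acyltransferase PORCN, the receptors FZD6 and FZD2, the E3 ligases RNF43 and ZNRF3, the antagonists DKK1 and SFRP5 and the transcription factor TCF7. Those that fell were LGR4, ROR1, DKK3, FZD5 and FZD8. Without iGLI2 replicate 1, 13 members were higher and 6 lower, where 30% of all genes were called. With small RNA genes left out and the libraries rescaled, 14 were higher and 5 lower, where 24.7% of all genes were called (14.6% higher), and 59.3% of those calls were higher against 46.0% as deposited. With the digit in the library's label code as a block, WNT7B, PORCN, FZD2 and ZNRF3 lost their calls (adjusted p = 0.0524, 0.0504, 0.0556 and 0.0523 by limma), which left 8 members higher and 5 lower, where 16.7% of all genes were called. Fold changes from the fit are on the log2(FPKM + 1) scale, which understates the change of genes with low values. Fewer cells with a transcript and less of it per cell cannot be told apart in these bulk libraries.

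**Figure D1:**
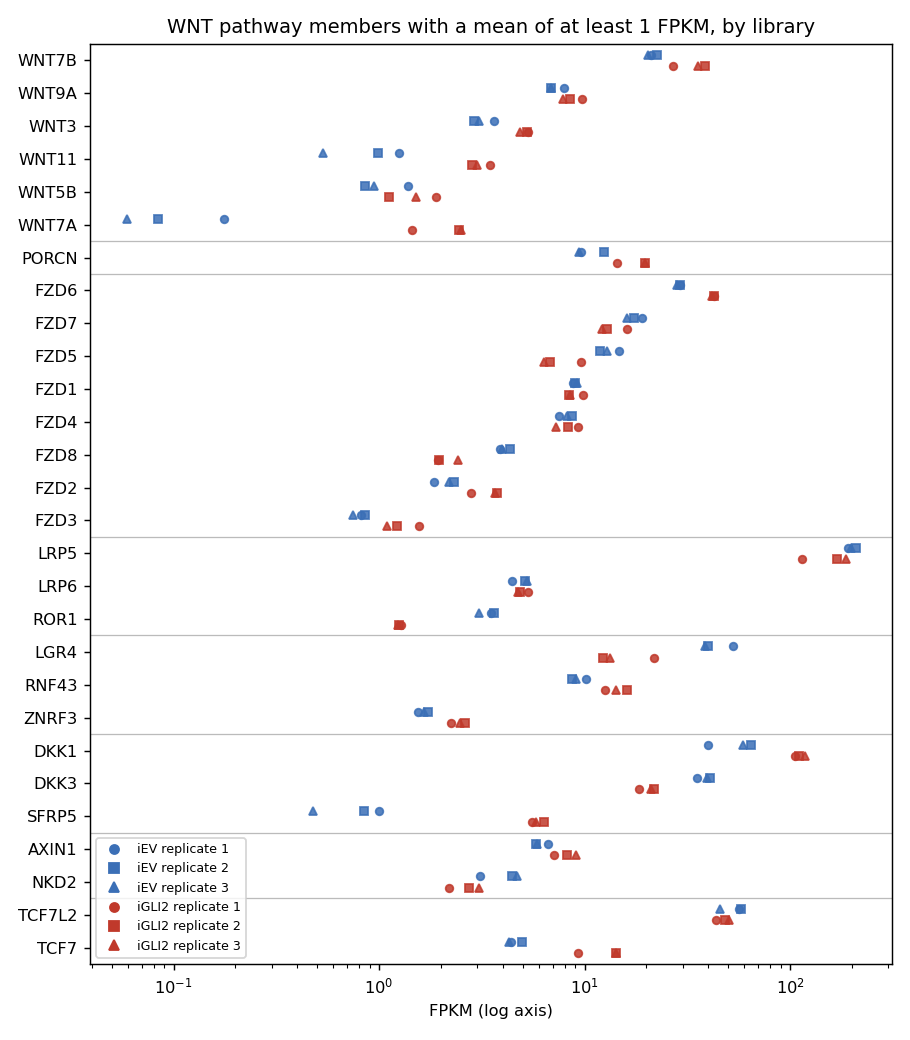
FPKM on a log axis of the 28 WNT pathway genes at or above a mean of 1 FPKM, grouped by role from ligands at the top to transcription factors at the bottom, with 1 point per library (iEV in blue, iGLI2 in red, marker shape for the replicate). WNT7A lies between 0.0591 and 0.176 FPKM in iEV and between 1.44 and 2.49 in iGLI2, while LRP5 is the most abundant member in every library.

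**Figure D2:**
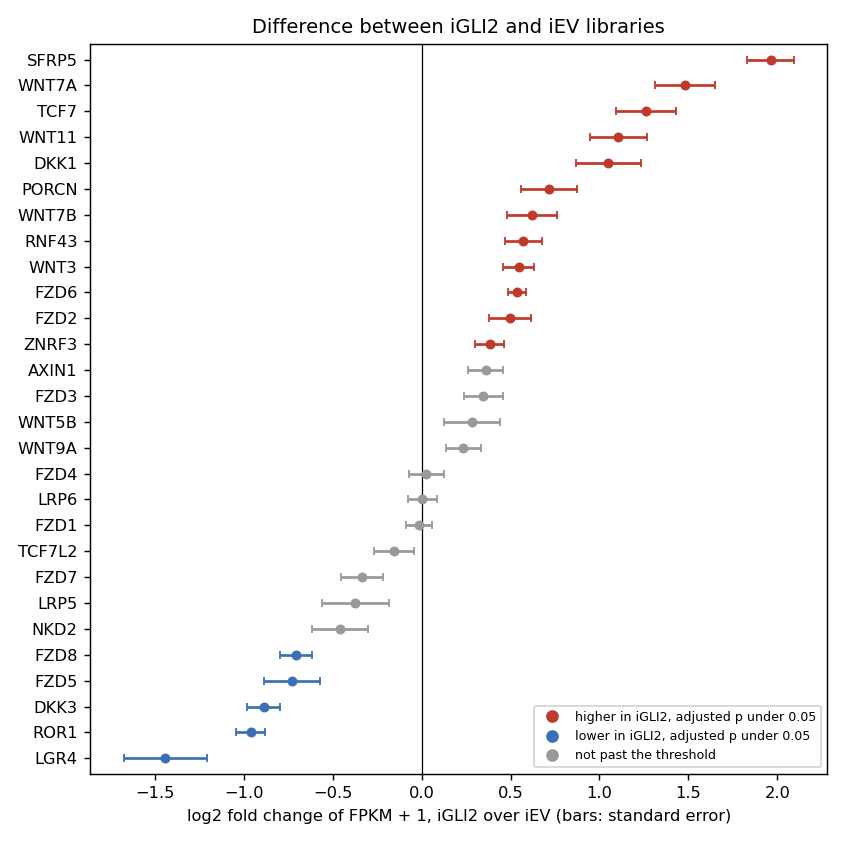
Log2 fold change of FPKM + 1, iGLI2 over iEV, for the same 28 genes in order of size, with bars for the standard error from limma and colour for the call at an adjusted p of 0.05. The values run from -1.44 for LGR4 to 1.96 for SFRP5.

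Among the 19 WNT ligands, 6 had a mean of at least 1 FPKM, 4 of these rose and none fell. That is 66.7% higher, beside 10.1% of all genes tested. WNT7A and WNT11, among the 4, reached the minimum only through the iGLI2 libraries. WNT10A had a mean of 0.977 FPKM in iEV and fell under the minimum through its low iGLI2 values, so the count leaves it out. WNT7B, which signals through beta-catenin in epithelia, was the most abundant ligand. It was at 21.0, 22.6 and 20.4 FPKM in iEV and at 26.8, 38.4 and 35.8 in iGLI2 (log2 fold change 0.62, SE 0.14, adjusted p = 0.0266 by limma). The groups did not overlap, but iGLI2 replicate 1 lay nearer to iEV than the other iGLI2 libraries did, and the call was kept without iGLI2 replicate 1 and lost when any other library was left out, with adjusted p up to 0.102. WNT3, another ligand of the beta-catenin branch, was at 3.64, 2.91 and 3.06 FPKM in iEV and at 5.29, 5.22 and 4.85 in iGLI2 (log2 fold change 0.55, SE 0.09, adjusted p = 0.0088 by limma). WNT11, best known for beta-catenin-independent signalling, was at 1.25, 0.984 and 0.536 FPKM in iEV and at 3.47, 2.82 and 3.00 in iGLI2, a ratio of means of 3.35 (log2 fold change 1.10, SE 0.16, adjusted p = 0.0064 by limma). For WNT3 and WNT11 every iGLI2 library was above every iEV library, and both calls held when any 1 library was left out.

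WNT7A, a close relative of WNT7B, was under the minimum of 1 FPKM in every iEV library and above it in every iGLI2 library. It was at 0.176, 0.0838 and 0.0591 FPKM in iEV and at 1.44, 2.44 and 2.49 in iGLI2, a 20.01-fold ratio of means that ran from 16.4 to 29.7 over the 6 omissions of a library (log2 fold change 1.48, SE 0.17, adjusted p = 0.0028 by limma). Again the lowest iGLI2 value was that of replicate 1. The entry lies at chr3:13860082-13921618 (hg19). The study's list of qPCR primers includes a pair for WNT7A, printed here because it says which bases of the message a separate measurement would read.
WNT7A forward primer: ctgtggctgcgacaaagagaa
WNT7A reverse primer: gccgtggcacttacattcc
Matched to GRCh37, the forward primer is at chr3:13896189-13896209 in exon 3 of 4 and the reverse primer at chr3:13860879-13860897 in exon 4, both in coding sequence of the MANE transcript, with a product of 223 bases. 

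WNT9A and WNT5B did not pass. WNT9A was at 7.96, 6.88 and 6.87 FPKM in iEV and at 9.73, 8.54 and 7.83 in iGLI2, with overlapping groups (log2 fold change 0.23, SE 0.10, adjusted p = 0.145 by limma). WNT5B, a ligand of the beta-catenin-independent branch, had means of 1.06 and 1.51 FPKM and overlapping groups. The 13 ligands under 1 FPKM had means over the 6 libraries of at most 0.638 FPKM. Of these WNT10A, a ligand of the beta-catenin branch, went the other way from the 4 that rose. It was at 0.794, 1.07 and 1.07 FPKM in iEV and at 0.0727, 0.0356 and 0.120 in iGLI2, a 12.8-fold lower mean, and was called when the minimum on low values was dropped (adjusted p = 0.0015 by limma). WNT10B was at 0.561, 0.569 and 1.23 FPKM in iEV and at 0.472, 0.421 and 0.582 in iGLI2, where the groups overlapped. Summed over the 19 ligands, the level was 36.1 ± 1.40 FPKM (SD, n = 3) in iEV and 55.3 ± 5.02 in iGLI2, a ratio of 1.53. WNT7B made up 59.1 ± 2.76% of that sum in iEV and 60.5 ± 5.77% in iGLI2, so its share differed by less than the spread between libraries, whereas WNT7A went from 0.291 ± 0.160% to 3.80 ± 0.798%. An exact permutation test of 3 against 3 libraries cannot give a two-sided p below 0.1, so such sums and shares are given with their spread only.

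PORCN, the enzyme of the endoplasmic reticulum that attaches the lipid WNT ligands need for secretion, rose with them. It was at 9.59, 12.4 and 9.44 FPKM in iEV and at 14.4, 19.6 and 19.7 in iGLI2 (log2 fold change 0.72, SE 0.16, adjusted p = 0.0253 by limma). The groups did not overlap. The call was lost without iEV replicate 1 or 3 or without iGLI2 replicate 2 or 3, with adjusted p up to 0.1005. Among 9 further genes of WNT secretion and the matrix, 7 could be tested, 2 rose and 0 fell, which is 28.6% called beside 21.9% of all genes tested. WLS, the carrier that takes lipid-modified WNT to the cell surface, was at 19.9, 23.04 and 22.7 FPKM in iEV and at 26.2, 22.1 and 20.4 in iGLI2, and did not pass (adjusted p = 0.740 by limma). The 2 that rose were glypicans, heparan sulphate proteoglycans of the cell surface that can bind WNT. GPC4 was at 15.1, 11.9 and 12.2 FPKM in iEV and at 48.4, 48.1 and 47.8 in iGLI2 (log2 fold change 1.81, SE 0.10, adjusted p = 3.05e-04), and GPC3 had a log2 fold change of 0.42 (adjusted p = 0.0083, both by limma).

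The Frizzled receptors kept nearly the same summed level while their mixture differed. Of 10 genes, 8 had a mean of at least 1 FPKM, 2 rose, 2 fell and 4 did not pass. That is 25% higher and 25% lower, beside 10.1% and 11.8% of all genes tested. FZD6, often described as a brake on beta-catenin signalling and a planar polarity receptor, was the most abundant. It was at 29.2, 29.3 and 28.2 FPKM in iEV and at 42.4, 42.7 and 41.9 in iGLI2 (log2 fold change 0.54, SE 0.05, adjusted p = 0.0016 by limma). FZD5, a receptor that RNF43-mutant PDA cells are known to rely on, was at 14.7, 11.9 and 12.8 FPKM in iEV and at 9.61, 6.82 and 6.37 in iGLI2 (log2 fold change -0.73, SE 0.16, adjusted p = 0.0239 by limma). FZD8, the receptor most similar to FZD5, fell as well, from 3.87, 4.35 and 3.98 FPKM in iEV to 1.94, 1.96 and 2.41 in iGLI2 (log2 fold change -0.71, SE 0.09, adjusted p = 0.0040 by limma). In all 3 genes no iGLI2 library overlapped an iEV library. The calls for FZD6 and FZD8 held whichever library was left out, whereas that for FZD5 was kept only without iGLI2 replicate 1, with adjusted p up to 0.0921 otherwise.

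FZD2, a receptor for WNT5A and other ligands, was at 1.84, 2.33 and 2.19 FPKM in iEV and at 2.82, 3.75 and 3.68 in iGLI2 (log2 fold change 0.50, SE 0.12, adjusted p = 0.0321 by limma), a call kept only without iGLI2 replicate 1 among the 6 omissions, with adjusted p up to 0.106. Its close relative FZD7 was at 19.0, 17.3 and 16.1 FPKM in iEV and at 16.1, 12.8 and 12.2 in iGLI2 and did not pass (log2 fold change -0.34, SE 0.12, adjusted p = 0.0997 by limma), with iGLI2 replicate 1 inside the iEV range. Without that library it was called, at an adjusted p of 0.0175. FZD1, FZD4 and FZD3 did not pass either. FZD1 was at 8.76, 8.99 and 9.21 FPKM in iEV and at 9.79, 8.42 and 8.51 in iGLI2. FZD4 was at 7.53, 8.67 and 8.17 FPKM in iEV and at 9.29, 8.32 and 7.29 in iGLI2, and 18.9% of its exon bases lie over exons of PRSS23 on the other strand, which the library kit does not tell apart. PRSS23, listed at the same locus as FZD4, was at 215, 192 and 180 FPKM in iEV and at 328, 260 and 249 in iGLI2. It was called higher (adjusted p = 0.0387 by limma), a call kept under 1 of the 6 omissions. The part of PRSS23 reads in the FZD4 values was not tested. FZD3 had means of 0.803 and 1.30 FPKM (adjusted p = 0.0759 by limma), and FZD9 and FZD10 were under 1 FPKM.

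The sum over the Frizzled receptors was 83.8 ± 2.27 FPKM (SD, n = 3) in iEV and 88.0 ± 5.17 in iGLI2, a ratio of 1.05 that lies within the spread. Within that sum FZD6 held 34.5 ± 0.507% in iEV and 48.2 ± 2.57% in iGLI2. FZD5 held 15.7 ± 1.49% and 8.58 ± 1.46%, FZD8 held 4.86 ± 0.352% and 2.41 ± 0.427%, and FZD7 held 20.8 ± 1.20% and 15.5 ± 1.44%. The shares of these 4 receptors did not overlap between the groups. Those of FZD2 (2.53 ± 0.344% and 3.91 ± 0.785%) and FZD3 (0.958 ± 0.0515% and 1.47 ± 0.184%) did not overlap either. The shares of FZD1 and FZD4 differed by less than 1 percentage point in their means. Shares of a sum are bound to each other, and FZD7 overlapped and was not called in its own FPKM.

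**Figure D3:**
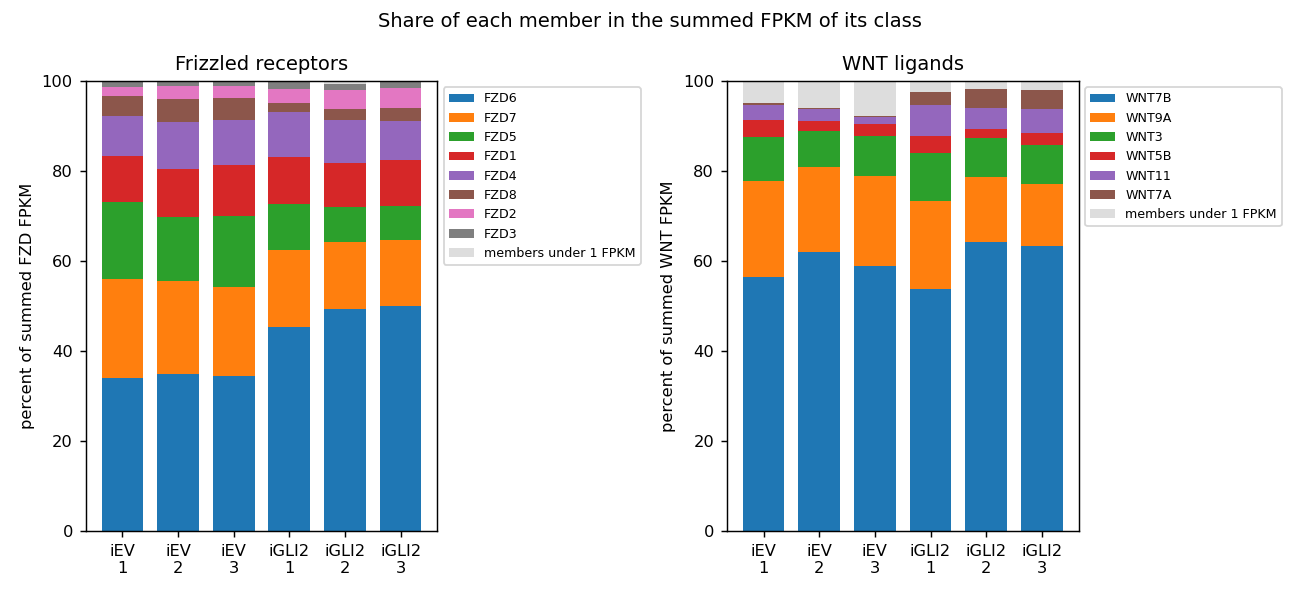
Stacked bars of each receptor's share (left) and each ligand's share (right) in the summed FPKM of its class, in percent, for each library, with members under 1 FPKM in grey. FZD6 goes from 34.5% of the Frizzled sum in iEV to 48.2% in iGLI2 on average, while WNT7B holds 59.1% and 60.5% of the ligand sum.

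Neither LRP co-receptor passed the test. LRP5 was the most abundant of the 57 genes, at 190.8, 209.3 and 198.0 FPKM in iEV and 114.1, 169.3 and 187.4 in iGLI2 (log2 fold change -0.37, SE 0.19, adjusted p = 0.213 by limma). Every iGLI2 library was under every iEV library, but the mean difference rested largely on iGLI2 replicate 1, without which the log2 fold change was -0.16. LRP6 was at 4.42, 5.15 and 5.28 FPKM in iEV and at 5.28, 4.84 and 4.76 in iGLI2. Of the ROR receptors, which bind WNT ligands without LRP5 or LRP6, ROR1 was at 3.50, 3.64 and 3.07 FPKM in iEV and at 1.28, 1.25 and 1.24 in iGLI2 (log2 fold change -0.96, SE 0.08, adjusted p = 0.0010 by limma). ROR2 went the other way at a lower level, from 0.388, 0.392 and 0.359 FPKM to 0.720, 0.693 and 0.638, and was called without the minimum on low values (adjusted p = 0.0054 by limma). In both genes the groups were well apart. As a result the ratio of ROR1 to ROR2 was 8.95 ± 0.376 (SD, n = 3) in iEV and 1.84 ± 0.0860 in iGLI2.

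R-spondins amplify WNT signalling by binding an LGR receptor and clearing the E3 ligases RNF43 and ZNRF3, which would otherwise remove Frizzled receptors from the membrane. LGR4 had the largest fall among the 28 genes tested. It was at 52.8, 39.9 and 38.6 FPKM in iEV and at 21.8, 12.3 and 13.3 in iGLI2 (log2 fold change -1.44, SE 0.23, adjusted p = 0.0096 by limma), and its highest iGLI2 value, in replicate 1, was well under its lowest iEV value. Its entry lies at chr11:27387508-27503980 (hg19). LGR5, the receptor known from intestinal stem cells, was at most 0.138 FPKM in any library. Both ligases rose. RNF43 was at 10.1, 8.70 and 9.07 FPKM in iEV and at 12.6, 16.2 and 14.2 in iGLI2 (log2 fold change 0.57, SE 0.10, adjusted p = 0.0144 by limma). ZNRF3 was at 1.54, 1.72 and 1.66 FPKM in iEV and at 2.24, 2.63 and 2.46 in iGLI2 (log2 fold change 0.38, SE 0.08, adjusted p = 0.0235 by limma). Neither gene had overlapping groups. The RNF43 call was lost without iEV replicate 2 or 3 or iGLI2 replicate 3 (adjusted p up to 0.0679), and the ZNRF3 call without iEV replicate 2 or 3 or iGLI2 replicate 2 or 3 (adjusted p up to 0.0709). Another protein-coding annotation on the same strand shares 68.4% of the exon bases of RNF43, and how the authors' counting divided such reads is not given in the sources used here.

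A list of 16 further genes that act at the receptors held 8 that could be tested, of which 3 rose and 2 fell (62.5% called beside 21.9% of all genes tested, with LGR6 and SOSTDC1 under the minimum in iEV). LGR6, the third LGR receptor for R-spondins, was at 0.331, 0.233 and 0.318 FPKM in iEV and at 5.58, 6.41 and 7.19 in iGLI2, a 21.7-fold ratio of means (log2 fold change 2.51, SE 0.11, adjusted p = 1.31e-04 by limma). LGR4 was therefore 151 ± 26.1 times LGR6 (SD, n = 3) in iEV and 2.56 ± 1.16 times LGR6 in iGLI2. SOSTDC1, a secreted antagonist that binds LRP co-receptors, was at 0.860, 0.974 and 0.989 FPKM in iEV and at 2.104, 2.95 and 3.35 in iGLI2 (log2 fold change 0.96, adjusted p = 0.0067 by limma). CPE, a carboxypeptidase reported to modulate WNT, had a log2 fold change of 1.46 (adjusted p = 0.0020 by limma). TPBG, an inhibitor of LRP6, and IGFBP4, which can bind LRP6 and Frizzled, fell, with log2 fold changes of -0.42 and -0.55 (adjusted p = 0.0044 and 0.0030 by limma).

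The secreted antagonists were dominated by 2 Dickkopf genes that moved in opposite directions. DKK1, which blocks LRP5 and LRP6 and is itself a target of beta-catenin, was at 40.0, 64.5 and 59.1 FPKM in iEV and at 106, 111 and 119 in iGLI2 (log2 fold change 1.05, SE 0.18, adjusted p = 0.0117 by limma). The groups did not overlap, and the adjusted p was 0.0502 without iGLI2 replicate 2 and 0.0508 without iGLI2 replicate 3. DKK3, a divergent member that does not act on LRP6 in the manner of DKK1, was at 35.2, 40.9 and 39.6 FPKM in iEV and at 18.4, 21.7 and 21.0 in iGLI2 (log2 fold change -0.89, SE 0.09, adjusted p = 0.0020 by limma). In GENCODE, exons of USP47 on the other strand cover 47.5% of the exon bases of DKK3. In the deposited table the 2 entries do not overlap (chr11:11862970-11980872 for USP47 and chr11:11984543-12030917 for DKK3, hg19). USP47 fell too, from 14.96, 15.17 and 16.8 FPKM in iEV to 9.01, 9.31 and 8.94 in iGLI2. The library kit does not mark strand, and whether reads of USP47 entered the DKK3 value is not known. DKK2 and DKK4 were at most 0.310 FPKM in any library.

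SFRP5, a secreted decoy that binds WNT ligands through a Frizzled-like domain, had the largest log2 fold change of the 28 with the pseudocount of 1, whereas by the ratio of means, or with a pseudocount of 0.1, WNT7A was ahead of it. It was at 1.00, 0.850 and 0.480 FPKM in iEV and at 5.52, 6.34 and 5.78 in iGLI2, a 7.57-fold ratio of means (log2 fold change 1.96, SE 0.13, adjusted p = 5.54e-04 by limma). The highest iEV library was far under the lowest iGLI2 library. SFRP1, SFRP2 and SFRP4 were at 0 or at most 0.0247 FPKM. Summed over the 10 antagonists, the level was 94.3 ± 15.9 FPKM (SD, n = 3) in iEV and 139 ± 8.14 in iGLI2. DKK1 held 57.3 ± 4.39% of it in iEV and 80.4 ± 1.14% in iGLI2, and DKK3 41.4 ± 4.13% and 14.6 ± 0.753%.

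Inside the cell, AXIN1, the scaffold of the beta-catenin destruction complex, was at 6.62, 5.82 and 5.87 FPKM in iEV and at 7.08, 8.24 and 9.09 in iGLI2 (log2 fold change 0.36, SE 0.10, adjusted p = 0.0517 by limma), on the edge of the threshold with groups that did not overlap. NKD2, a Dishevelled-binding antagonist, had means of 4.07 FPKM in iEV and 2.67 in iGLI2, also with groups that did not overlap, and did not pass (adjusted p = 0.0904 by limma). TCF7L2, the most abundant TCF factor, was at 56.4, 58.0 and 45.8 FPKM in iEV and at 43.7, 48.5 and 50.7 in iGLI2 and did not pass (adjusted p = 0.375 by limma). TCF7 was at 4.41, 4.97 and 4.31 FPKM in iEV and at 9.24, 14.1 and 14.3 in iGLI2 (log2 fold change 1.26, SE 0.17, adjusted p = 0.0047 by limma). All 3 iGLI2 libraries were above all iEV libraries, and replicate 1 was the lowest of them. The ratio of TCF7 to TCF7L2 was 0.0860 ± 0.00801 (SD, n = 3) in iEV and 0.261 ± 0.0437 in iGLI2.

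LEF1, SP5 and NKD1, known as feedback targets of beta-catenin, lay under 1 FPKM on average and rose in iGLI2, while NOTUM was on the edge of the threshold and AXIN2 did not pass. LEF1, the TCF-family factor that beta-catenin induces, was at 0.140, 0.0768 and 0.0640 FPKM in iEV and at 0.818, 0.634 and 1.02 in iGLI2, an 8.79-fold ratio of means (adjusted p = 0.0042 by limma without the minimum on low values). SP5, a zinc-finger repressor induced by WNT, was at 0.0916, 0.0988 and 0 FPKM in iEV and at 0.688, 1.30 and 1.30 in iGLI2 (adjusted p = 0.0082 in the same fit). NKD1, the relative of NKD2 that beta-catenin induces, was at 0.138, 0.238 and 0.226 FPKM in iEV and at 0.470, 0.692 and 0.704 in iGLI2 (adjusted p = 0.0144 in the same fit of limma). In these 3 genes no library of one line reached the range of the other. NOTUM, the secreted enzyme that removes the lipid from WNT, was at 0.0408, 0.176 and 0.212 FPKM in iEV and at 0.365, 0.980 and 0.910 in iGLI2, without overlap, and was on the edge of the threshold (adjusted p = 0.0553 by limma in that fit, and 0.0466 with a pseudocount of 0.1, an alternative chosen after seeing the data). AXIN2 was at 0.232, 0.254 and 0.144 FPKM in iEV and at 0.236, 0.796 and 0.665 in iGLI2 and did not pass either (adjusted p = 0.171 by limma). Its iGLI2 replicates 2 and 3 were above every iEV library, whereas replicate 1, the library with the least GLI2, lay inside the iEV range. The part of the lower GLI2 level in that value was not tested. Another annotation on the same strand shares 25.3% of the exon bases of AXIN2. On the other strand LEF1-AS1 covers 5.20% of those of LEF1 and is listed at the same locus. It was at 0 FPKM in every iEV library and at 0.177, 0.203 and 0.136 in iGLI2. The part of LEF1-AS1 reads in the LEF1 values was not tested.

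**Figure D4:**
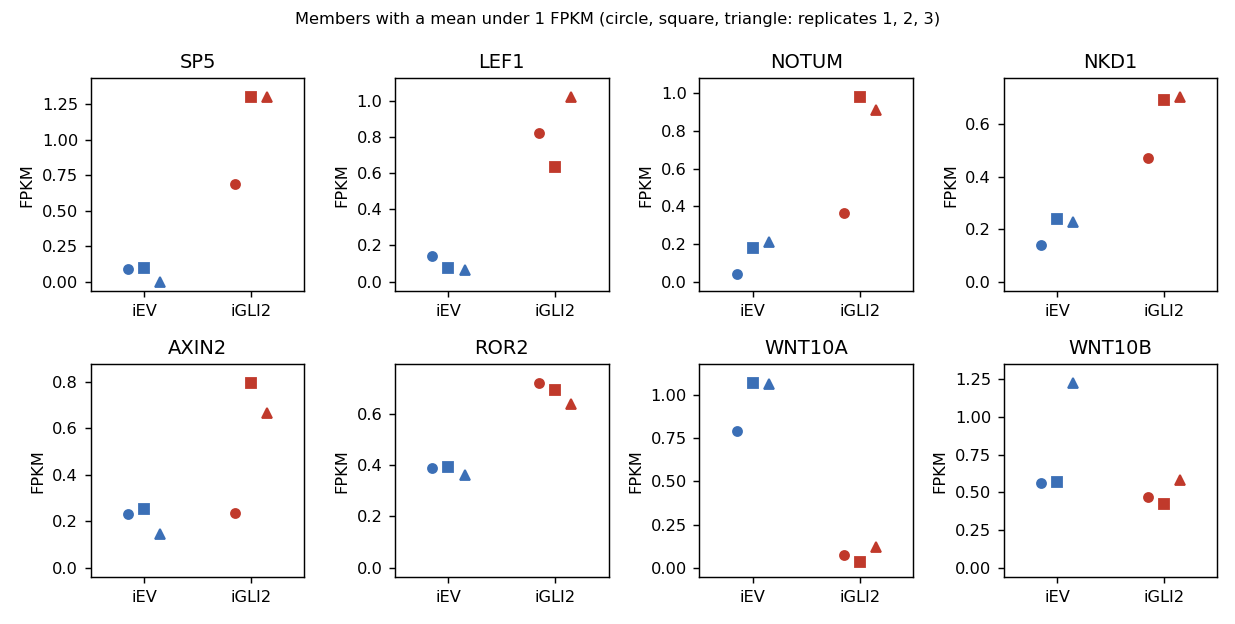
FPKM of 8 WNT pathway genes with a mean under 1 FPKM in the iEV and iGLI2 libraries, with 1 point per library and the marker shape for the replicate. SP5, LEF1, NOTUM, NKD1 and ROR2 are higher in every iGLI2 library, WNT10A is lower in every iGLI2 library, and AXIN2 and WNT10B overlap.

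Of the 29 genes under 1 FPKM, 7 were higher and 1 was lower in every iGLI2 library, and 5 passed without the minimum on low values (WNT10A, LEF1, SP5, NKD1 and ROR2). The 29 include the 6 listed at 0 in every library, a kind of gene that the shares given next leave out. Among all genes with a mean above 0 and under 1 FPKM, 12% were higher and 9.92% lower without overlap, and 8.72% passed in that fit, which called 15.1% of all genes with a value above 0. Among those between 0.3 and 1 FPKM, 21.1% were higher without overlap and 12% passed as higher. TCF7L1, a TCF factor known mainly as a repressor, was at 1.07, 0.461 and 0.440 FPKM in iEV and at 0.533, 0.733 and 0.607 in iGLI2, with overlap. A group of 12 feedback genes was assembled with these values known and so supports no direction. It holds AXIN2, LEF1, TCF7, SP5, NKD1, NOTUM, RNF43, ZNRF3, LGR5, APCDD1, DKK1 and DKK4. In it, the 4 genes at or above 1 FPKM on average (TCF7, RNF43, ZNRF3 and DKK1) were higher in every iGLI2 library, as were 19.2% of all genes tested. Of the 8 under 1 FPKM, 4 were higher in every iGLI2 library and 4 overlapped, beside 12% higher among all genes above 0 and under 1 FPKM. The 4 that were higher (LEF1, SP5, NKD1 and NOTUM) had means between 0.3 and 1 FPKM, as did AXIN2, which overlapped. In that range the share of all genes was the 21.1% given above. Across the 17 called members, iGLI2 replicate 1 was the iGLI2 library nearest to the iEV mean in 12 (70.6%), and it was the nearest in 46.0% of all called genes.

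In the cytoplasmic and nuclear core of the pathway, 25 of 30 listed genes were tested, 4 rose and 1 fell, which is 20% called beside 21.9% of all genes tested. CTNNB1, which encodes beta-catenin, was at 111, 117 and 115 FPKM in iEV and at 140, 141 and 136 in iGLI2 (log2 fold change 0.28, SE 0.06, adjusted p = 0.0180 by limma). CTNNBIP1, an inhibitor of the binding of beta-catenin to TCF, rose by more (log2 fold change 0.53, adjusted p = 0.0034). The Dishevelled genes DVL1 and DVL3, which relay the signal from Frizzled, rose with log2 fold changes of 0.81 and 0.31 (adjusted p = 0.0332 and 0.0346). FRAT2, which binds GSK3, fell (log2 fold change -0.53, adjusted p = 0.0028, all by limma). The calls for CTNNB1, DVL1 and DVL3 were kept under 1 or 2 of the 6 omissions of a library. APC, GSK3A and GSK3B, which belong to the destruction complex, did not pass.

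Among 28 genes listed as targets of beta-catenin in other tissues, 19 were tested, 6 rose and 3 fell, which is 31.6% higher and 15.8% lower beside 10.1% and 11.8% of all genes tested. PROX1, among the 6 that rose, had a mean of 0.697 FPKM in iEV and 1.47 in iGLI2. It reached the minimum only through the iGLI2 libraries, so its place among the 19 is not independent of the difference. TRIB2, a pseudokinase, was at 12.4, 11.2 and 10.5 FPKM in iEV and at 57.9, 59.6 and 57.2 in iGLI2 (log2 fold change 2.26, SE 0.07, adjusted p = 1.11e-04 by limma). BAMBI, a decoy receptor of the TGF-beta family, was at 5.53, 4.69 and 4.70 FPKM in iEV and at 15.2, 19.8 and 20.6 in iGLI2 (log2 fold change 1.70, SE 0.13, adjusted p = 7.59e-04 by limma). CD44, a cell-surface receptor for hyaluronan, and TIAM1, an activator of RAC, also rose, with log2 fold changes of 0.86 and 0.64 (adjusted p = 0.0014 and 0.0143 by limma), the latter under 2 of the 6 omissions. The 3 that fell were MMP7, a matrix metalloproteinase, TNFRSF19, a receptor of the tumour necrosis factor family, and TCF4, a basic helix-loop-helix factor. Their log2 fold changes were -1.24, -1.11 and -0.89 (adjusted p = 0.0339, 5.07e-04 and 0.0030 by limma). MMP7 was at 312, 333 and 299 FPKM in iEV and at 80.7, 178 and 162 in iGLI2, and its call was kept under 2 of the 6 omissions. MYC, looked at after its values were seen, was at 78.9, 114 and 102 FPKM in iEV and at 46.1, 71.9 and 74.4 in iGLI2 and did not pass (adjusted p = 0.104 by limma).

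For planar polarity and other signalling without beta-catenin, 15 of 20 listed genes were tested, 1 rose and 2 fell, which is 20% called. MAPK8, which encodes the kinase JNK1, was at 17.9, 16.8 and 16.3 FPKM in iEV and at 27.1, 24.4 and 23.2 in iGLI2 (log2 fold change 0.52, adjusted p = 0.0066 by limma). CELSR1, a cadherin of the planar polarity complex, and NFATC1, a factor activated by calcium, fell, with log2 fold changes of -0.50 and -0.59 (adjusted p = 0.0253 and 0.0352 by limma), calls kept under 2 and 1 of the 6 omissions. Over the 5 further lists together, 74 genes were tested, 16 rose and 8 fell, which is 32.4% beside the 21.9% of all genes, and their median log2 fold change was 0.08. The 16 include LGR6, SOSTDC1 and PROX1, which were under the minimum in iEV. The lists were chosen with earlier results of these data known, so the shares called in them are given as a description. SOX9, which also marks duct cells, stands among the targets, and COL1A1, the fibroblast marker called higher, had a log2 fold change of 0.61 and stayed under 3 FPKM. The part of cell composition in these differences was not tested.

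Promoters of the members were read from RefSeq (GRCh38.p14) as windows of 300 bases that span the annotated start, and 47 promoters of members were found among 35116. Some members, such as TCF7L2 and PORCN, had more than 1 window, and others had none. Among those without a window were the called WNT7B, WNT11, FZD2, FZD6, ZNRF3 and DKK3 and the feedback genes AXIN2, NKD1 and NOTUM. The search says nothing about members without a window. Each was searched on both strands for the GLI site GACCACCCA and the TCF/LEF site CTTTGAT, neither of which contains the other. The GLI site was in 0 of the 47 and in 0.236% of all promoters. With 1 base allowed to differ it was in 1, a promoter of PORCN (GAACACCCA at position -191 from the start), and in 6.74% of all promoters. The TCF/LEF site was in 1 of the 47, that of SP5 at position -109, and in 2.62% of all promoters. A match is a description of the letters in the window and does not show a site in use. The promoter of SP5 is printed because it holds that match, in capitals, and was picked after its values were seen. Those of SFRP5, WNT7A and LGR4 are printed because these were the members with the largest fold changes, and no letter in them is marked.
SP5, chr2:170715087-170715386, plus strand: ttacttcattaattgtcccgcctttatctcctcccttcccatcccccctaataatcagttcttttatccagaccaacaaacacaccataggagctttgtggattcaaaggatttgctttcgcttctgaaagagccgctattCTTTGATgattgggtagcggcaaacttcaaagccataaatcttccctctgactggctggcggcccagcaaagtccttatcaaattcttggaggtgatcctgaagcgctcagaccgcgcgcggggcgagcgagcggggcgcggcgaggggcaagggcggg
SFRP5, chr10:97771950-97772249, minus strand: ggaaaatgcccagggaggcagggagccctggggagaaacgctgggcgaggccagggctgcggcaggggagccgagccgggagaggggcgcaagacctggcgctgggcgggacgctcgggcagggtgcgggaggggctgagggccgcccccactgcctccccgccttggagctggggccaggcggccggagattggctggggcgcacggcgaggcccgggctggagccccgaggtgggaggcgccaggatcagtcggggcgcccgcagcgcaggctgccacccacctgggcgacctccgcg
WNT7A, chr3:13880022-13880321, minus strand: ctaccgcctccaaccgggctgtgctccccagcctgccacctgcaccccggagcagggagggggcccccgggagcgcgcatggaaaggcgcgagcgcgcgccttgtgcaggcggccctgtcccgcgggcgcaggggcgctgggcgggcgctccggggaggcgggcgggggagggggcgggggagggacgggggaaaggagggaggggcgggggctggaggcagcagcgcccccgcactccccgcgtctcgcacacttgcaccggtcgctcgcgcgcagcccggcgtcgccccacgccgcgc
LGR4, chr11:27472741-27473040, minus strand: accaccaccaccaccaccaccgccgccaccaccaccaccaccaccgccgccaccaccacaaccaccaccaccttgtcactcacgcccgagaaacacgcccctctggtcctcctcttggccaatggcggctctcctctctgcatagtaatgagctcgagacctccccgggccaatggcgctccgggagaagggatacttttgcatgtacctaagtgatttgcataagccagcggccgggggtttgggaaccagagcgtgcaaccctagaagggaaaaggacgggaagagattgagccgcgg
The promoters of WNT7A and SFRP5 hold 80.3% and 77.3% G and C with 40 and 28 CpG dinucleotides. That of LGR4 holds 61.3% with 18, and that of SP5 52.3% with 17. These promoters were picked as stated above, and a relation between base content and expression was not tested.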

How the data were processed

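RNA-seq libraries were made by the authors with a TruSeq RNA kit from total RNA of 3 YAPC-iEV and 3 YAPC-iGLI2 samples. Trimmomatic was used for trimming and TopHat2 for alignment (hg19), and the submitters' processing notes name Cuffdiff 2.1.1. The header of the deposited table names no unit, and its values were taken here to be FPKM from their form and from the mention of Cuffdiff. The annotation, scaling between libraries and handling of multi-mapping reads are not given in the sources used here. Cuffdiff loci can cover neighbouring transcripts.

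The table holds 27024 entries. After leaving out 1252 outside the primary chromosomes and keeping the entry with the highest mean per name, 25442 genes remained, and 0 columns were left without a sample. log2(FPKM + 1) of 12493 genes (mean of at least 1 FPKM) was fitted with limma 3.58.1 in R 4.3.3 (condition only, intensity trend, two-sided, Benjamini-Hochberg, threshold 0.05). Comparisons of what 1 fragment is worth gave no common ratio between libraries (at most 5.31% of low genes shared one), so reads were not recovered. Tables and plots used Python 3.11.15, pandas 2.3.3 and matplotlib 3.10.9. Exon overlaps came from GENCODE on GRCh37 and promoters from RefSeq GRCh38.p14.

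Every member with a mean of at least 1 FPKM was named, with a value in every library where it was called or had a mean of at least 5 FPKM. Members under 1 FPKM were named where a group mean was at least 0.5 FPKM or the group means differed at least 4-fold with the higher at least 0.3. Of other lists, up to 4 passing genes per direction with the smallest p were named. Members and lists were chosen with earlier results of these data known. Alternatives were a pseudocount of 0.1, other minima, upper quartile and quantile scaling, leaving out 328 small RNA genes, blocks, limma without trend or with robust moderation, a 2-fold requirement and leaving out each library. No minimum together with a pseudocount of 0.1 was added after seeing the data.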

Additional observations from a re-analysis of the deposited data

How the results depend on the processing

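Over single members, 410 of 464 values under an alternative kept their direction and their side of the threshold, 32 lost the call, 13 gained it and 9 changed sign. The sign changes were all in genes near 0, namely FZD1 (0.056 with small RNA genes left out, 0.0011 without iEV replicate 3, 0.020 without iGLI2 replicate 2 and 0.013 without iGLI2 replicate 3, with a range over the omissions from -0.078 to 0.020), FZD4 (-0.023 without iEV replicate 1 and -0.051 without iGLI2 replicate 1, with a range up to 0.11) and LRP6 (-0.016 with quantile normalization, -0.062 without iEV replicate 1 and -0.035 without iGLI2 replicate 1, with a range up to 0.044). FZD6, FZD8, ROR1, LGR4, DKK3, SFRP5, TCF7, WNT3, WNT7A and WNT11 were called under every alternative in which they were tested, the 2-fold requirement aside. AXIN1 was called under 6 of its 17 alternatives, among them both upper quartile and quantile scaling.

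With a requirement of 2-fold, 5 members were higher and 1 lower, 5 and 2 genes of the other lists were higher and lower, and 527 of 12493 genes were called in all. With a mean of at least 5 FPKM, which leaves fewer members to test, 6 were higher and 3 lower, where 1914 of 9037 genes were called. When 1 library was left out, which also removes a residual degree of freedom, members higher ranged from 6 to 13, members lower from 4 to 6, genes of the other lists higher from 10 to 25 and lower from 5 to 12, and genes called from 1223 to 3753. The rescaling without small RNA genes shifted the median of all genes by 0.07 on the log2 scale.

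Same-numbered libraries correlated in their deviations at r = 0.204, 0.0919 and 0.0276 for replicates 1, 2 and 3, and iEV replicates 1 and 3 correlated best with their own number but iEV replicate 2 with iGLI2 replicate 3 (0.117). Not every pair was over 0.1 and the labels name no shared culture or day, so the numbers were not taken to pair the libraries, and whether they do is not known. With the replicate block, 13 members were higher and 7 lower, where 3928 of 12493 genes were called. Depth is unknown, so no counting error stands behind the values under 1 FPKM.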
